A study of Arabidopsis thaliana with 12 samples.

Results

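The 10 genes described here encode enzymes that make carotenoids and xanthophylls in Arabidopsis thaliana plastids. They were taken by name, as the non-control array probes whose locus identifier is that of PSY (AT5G17230), PDS (AT4G14210), ZDS (AT3G04870), LCYB (AT3G10230), LCYE (AT5G57030), LUT1 (AT3G53130), BCH1 (AT4G25700), BCH2 (AT5G52570), ZEP (ABA1, AT5G67030) or VDE (NPQ1, AT1G08550). All 10 were on the array and all 10 were tested, among 20640 tested loci of 25665 on the array. Each was read by 1 probe, except ZDS, which had 2, and every probe used was well above background on all 12 arrays. The study profiled whole seedlings aged 2 weeks on 1-colour Agilent arrays, 4 arrays for each of 3 genotypes, all in the Columbia-0 accession and without treatment. All 3 genotypes were grown with 1% sucrose at 23 degrees C, in 16 h of light and 8 h of dark. GLK1-SRDX seedlings carry the transcription factor GLK1 fused to the SRDX repression domain under the 35S promoter, which drives expression in most plant tissues. The glk1 glk2 seedlings are a double mutant of both genes, and the wild-type seedlings carry neither change. Each RNA came from many pooled seedlings, and how many independent GLK1-SRDX lines were used is not given in these sources. Nothing in the labels says that the arrays of a group stand for separate cultures, so the p-values cover only the spread among these samples, part of which may be technical. The series title concerns tolerance to an air pollutant and closed stomata.

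Carotenoids are built from geranylgeranyl diphosphate of the plastid isoprenoid pathway. Phytoene synthase commits that precursor, desaturases and isomerases turn phytoene into red lycopene, and cyclases close its ends into a beta,epsilon branch that leads to lutein and a beta,beta branch that leads to zeaxanthin, violaxanthin and neoxanthin. In leaves these pigments sit in the photosynthetic complexes, where they harvest light and quench excess energy, and violaxanthin and neoxanthin are also precursors of the hormone abscisic acid. GLK1 and GLK2 are transcription factors known for promoting chloroplast development and the expression of photosynthesis genes.

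Values below are log2 signals relative to the 75th percentile of the same array, so a value of 1 is a signal at double that percentile, and levels are not set against each other between probes. On this scale GLK2 averaged -5.28 ± 0.34 in glk1 glk2 against 2.24 ± 0.32 in wild type, and GLK1 averaged -2.13 ± 0.66 in glk1 glk2 against 0.09 ± 0.27 in wild type (SD, n = 4 each). GLK1-SRDX averaged 0.94 ± 0.14 for GLK1 and 2.86 ± 0.15 for GLK2 (SD, n = 4), and neither passed against wild type (limma adjusted p = 0.0649 and 0.0513). All 4 GLK1-SRDX arrays lay on a slide of their own, and the effects of slide and of GLK1-SRDX cannot be told apart, whereas the other 2 slides each held 2 glk1 glk2 and 2 wild-type arrays. The seedlings were whole, and of 8 green-leaf markers and 15 root markers, 21 were well above background on all 12 arrays, HKT1 on 10 and NRT2.1 on 5. In such bulk samples, fewer cells of a type and less RNA per cell cannot be told apart.

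Against wild type, 0 of the 10 carotenoid genes passed the test in GLK1-SRDX, where 14.4% of all loci did, and 0 of the 10 passed in glk1 glk2, where 3.25% of all loci did (limma, Benjamini-Hochberg adjusted p under 0.05). At an unadjusted p under 0.05 these counts were 1 and 2, where 6357 and 4038 of the 20640 loci reached it. For GLK1-SRDX against glk1 glk2, 5056 of all loci reached it. These totals are the background for the unadjusted counts of other lists in the main fit below. Between GLK1-SRDX and glk1 glk2, 1 gene passed, the beta-carotene hydroxylase BCH1, which was lower in GLK1-SRDX, where 9.26% of all loci passed in either direction and 3.58% in this one. The median log2 fold change over the 10 genes was 0.018 for GLK1-SRDX against wild type, 0.18 for glk1 glk2 against wild type and -0.23 for GLK1-SRDX against glk1 glk2, beside medians over all loci of 0.012, 0.00067 and -0.0052. The plot of fitted changes shows that most intervals crossed 0.

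**Figure D1:**
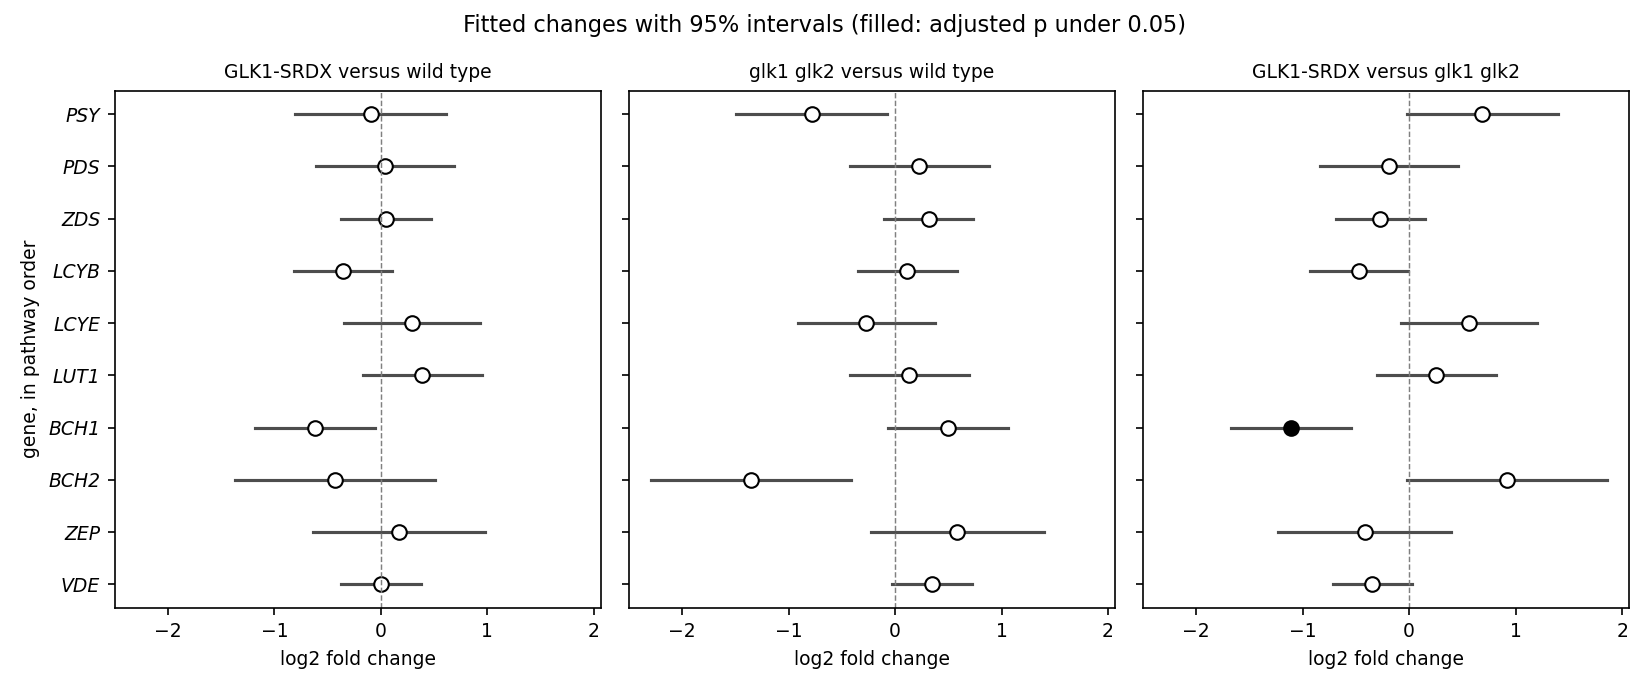
Fitted log2 fold change (points, x axis) of the 10 carotenoid genes in pathway order (y axis) in 3 comparisons, with 95% confidence intervals as bars, n = 4 arrays per group. The 1 filled point, BCH1 in GLK1-SRDX versus glk1 glk2, passed the limma test at an adjusted p under 0.05.

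PSY encodes phytoene synthase, the entry step of the pathway and its main rate-controlling enzyme. Its log2 signal was 1.98, 2.12, 1.81 and 2.01 on GLK1-SRDX arrays 1 to 4, 1.59, 1.20, 0.48 and 1.89 on glk1 glk2 arrays, and 2.31, 1.74, 1.46 and 2.77 on wild-type arrays. The GLK1-SRDX arrays lay close together within the range of wild type, and the glk1 glk2 arrays lay lower but overlapped both. PSY was lower in glk1 glk2 by 1.72-fold against wild type (a log2 difference of -0.78 ± 0.32 SE, limma adjusted p = 0.212). In GLK1-SRDX it differed from wild type by -0.10 (95% interval -0.80 to 0.61), so a change of up to 0.80 in the downward direction was still inside the interval.

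PDS and ZDS encode phytoene desaturase and zeta-carotene desaturase, which introduce the double bonds that lead to lycopene. PDS ran from 1.74 to 2.04 on GLK1-SRDX arrays, from 1.17 to 2.72 on glk1 glk2 arrays and from 1.44 to 2.30 on wild-type arrays. ZDS ran from 1.49 to 1.70 on GLK1-SRDX arrays, from 1.24 to 2.24 on glk1 glk2 arrays and from 1.27 to 1.79 on wild-type arrays. For both genes the groups overlapped, and the glk1 glk2 arrays spread the most. The fitted differences of glk1 glk2 from wild type were 0.23 for PDS (95% interval -0.42 to 0.88) and 0.32 for ZDS (-0.10 to 0.74), and those of GLK1-SRDX from wild type were 0.04 (-0.61 to 0.68) and 0.05 (-0.37 to 0.47). The second ZDS probe was dim, at 61.8 to 93.1 intensity units, and stood at 0.034 in GLK1-SRDX and -0.10 in glk1 glk2 against wild type, and its glk1 glk2 value was opposite in sign to that of the brighter probe.

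LCYB and LCYE encode the lycopene beta-cyclase and epsilon-cyclase, whose balance divides carbon between the beta,beta and the lutein branch. LCYB stood at 2.22, 2.41, 2.18 and 2.39 on GLK1-SRDX arrays, 2.92, 2.84, 2.11 and 3.22 on glk1 glk2 arrays and 2.74, 2.59, 2.34 and 2.95 on wild-type arrays. LCYE stood at 0.24, 0.47, 0.36 and 0.37 on GLK1-SRDX arrays, -0.10, -0.23, -0.96 and 0.49 on glk1 glk2 arrays and 0.19, -0.19, -0.40 and 0.68 on wild-type arrays. The groups overlapped for both genes, yet in GLK1-SRDX the sign of the difference from wild type was opposite, at -0.36 ± 0.21 for LCYB and 0.29 ± 0.29 for LCYE (SE, limma adjusted p = 0.277 and 0.53). In glk1 glk2 the differences were 0.12 ± 0.21 for LCYB and -0.27 ± 0.29 for LCYE (SE, limma adjusted p = 0.802 and 0.647).

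The carotene hydroxylases add the hydroxyl groups that make a carotene a xanthophyll. LUT1, a cytochrome P450 that hydroxylates the epsilon ring on the way to lutein, had overlapping groups, averaging 0.96 ± 0.10 in GLK1-SRDX, 0.71 ± 0.52 in glk1 glk2 and 0.58 ± 0.40 in wild type (SD, n = 4 each). It was 0.39 higher in GLK1-SRDX (95% interval -0.17 to 0.95) and 0.13 higher in glk1 glk2 (-0.43 to 0.69) than in wild type, and neither passed (limma adjusted p = 0.329 and 0.817).

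BCH1 encodes a non-haem di-iron hydroxylase of the beta rings. Its log2 signal was 0.75, 1.05, 0.27 and 0.56 on GLK1-SRDX arrays, 2.06, 1.92, 1.02 and 2.07 on glk1 glk2 arrays, and 1.43, 1.27, 0.84 and 1.54 on wild-type arrays. The genotypes lay in the order GLK1-SRDX, wild type, glk1 glk2 from low to high. Neighbouring groups overlapped, through GLK1-SRDX array 2 and through replicate 3 of glk1 glk2 and wild type. BCH1 was 2.16-fold lower in GLK1-SRDX than in glk1 glk2 (log2 fold change -1.11 ± 0.26 SE, 95% interval -1.68 to -0.55, limma adjusted p = 0.0216). The exact two-sided permutation test over the 8 arrays gave p = 0.0571, since glk1 glk2 array 3 lay just below the highest GLK1-SRDX array. The call held in 13 of 22 alternative settings, with adjusted p from 0.00311 to 0.0791. It was lost without glk1 glk2 replicate 1 or 2 (limma adjusted p = 0.0682 and 0.0564), without GLK1-SRDX replicate 1, 3 or 4 (0.0535, 0.0684 and 0.0522), and in a fit of those 2 groups alone (0.0537). It was also lost with normexp background correction (0.0578), with median scaling (0.058) and with the authors' series table (0.0791). Neither step of the order against wild type passed, at -0.62 ± 0.26 for GLK1-SRDX (limma adjusted p = 0.13) and 0.50 ± 0.26 for glk1 glk2 (limma adjusted p = 0.312).

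BCH2, the paralogue of BCH1, showed another order. It stood at -1.80, -0.71, -2.29 and -0.76 on GLK1-SRDX arrays, -1.99, -2.27, -3.10 and -1.88 on glk1 glk2 arrays and -0.42, -1.18, -1.74 and -0.50 on wild-type arrays. Every glk1 glk2 array lay below every wild-type array, and the GLK1-SRDX arrays spread over both groups. BCH2 was lower in glk1 glk2 by 2.55-fold against wild type (a log2 difference of -1.35 ± 0.43 SE, 95% interval -2.29 to -0.41), which did not pass (limma adjusted p = 0.116). The exact permutation p was 0.0286, the smallest possible with 4 arrays against 4, and BCH2 was the 1 of the 10 genes whose groups did not overlap in this comparison, as was the case for 9.66% of all loci. In GLK1-SRDX against wild type no carotenoid gene had separate groups, where 28.1% of loci did, and against glk1 glk2 the share of loci was 17.2%. Whether the BCH1 and BCH2 probes respond to each other's transcript was not tested.

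ZEP and VDE encode the opposed enzymes of the xanthophyll cycle, zeaxanthin epoxidase and violaxanthin de-epoxidase, and ZEP is also an early step of abscisic acid synthesis. ZEP ran from 3.36 to 3.54 on GLK1-SRDX arrays, from 2.76 to 4.59 on glk1 glk2 arrays and from 2.61 to 3.93 on wild-type arrays. VDE ran from 2.57 to 2.91 on GLK1-SRDX arrays, from 2.62 to 3.31 on glk1 glk2 arrays and from 2.41 to 3.01 on wild-type arrays. Both genes overlapped between all groups. Relative to wild type, glk1 glk2 differed by 0.59 for ZEP (95% interval -0.22 to 1.40, limma adjusted p = 0.406) and 0.34 for VDE (-0.03 to 0.72, limma adjusted p = 0.293). In GLK1-SRDX the differences were 0.17 for ZEP (-0.64 to 0.98) and close to 0 for VDE (-0.38 to 0.37).

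**Figure D2:**
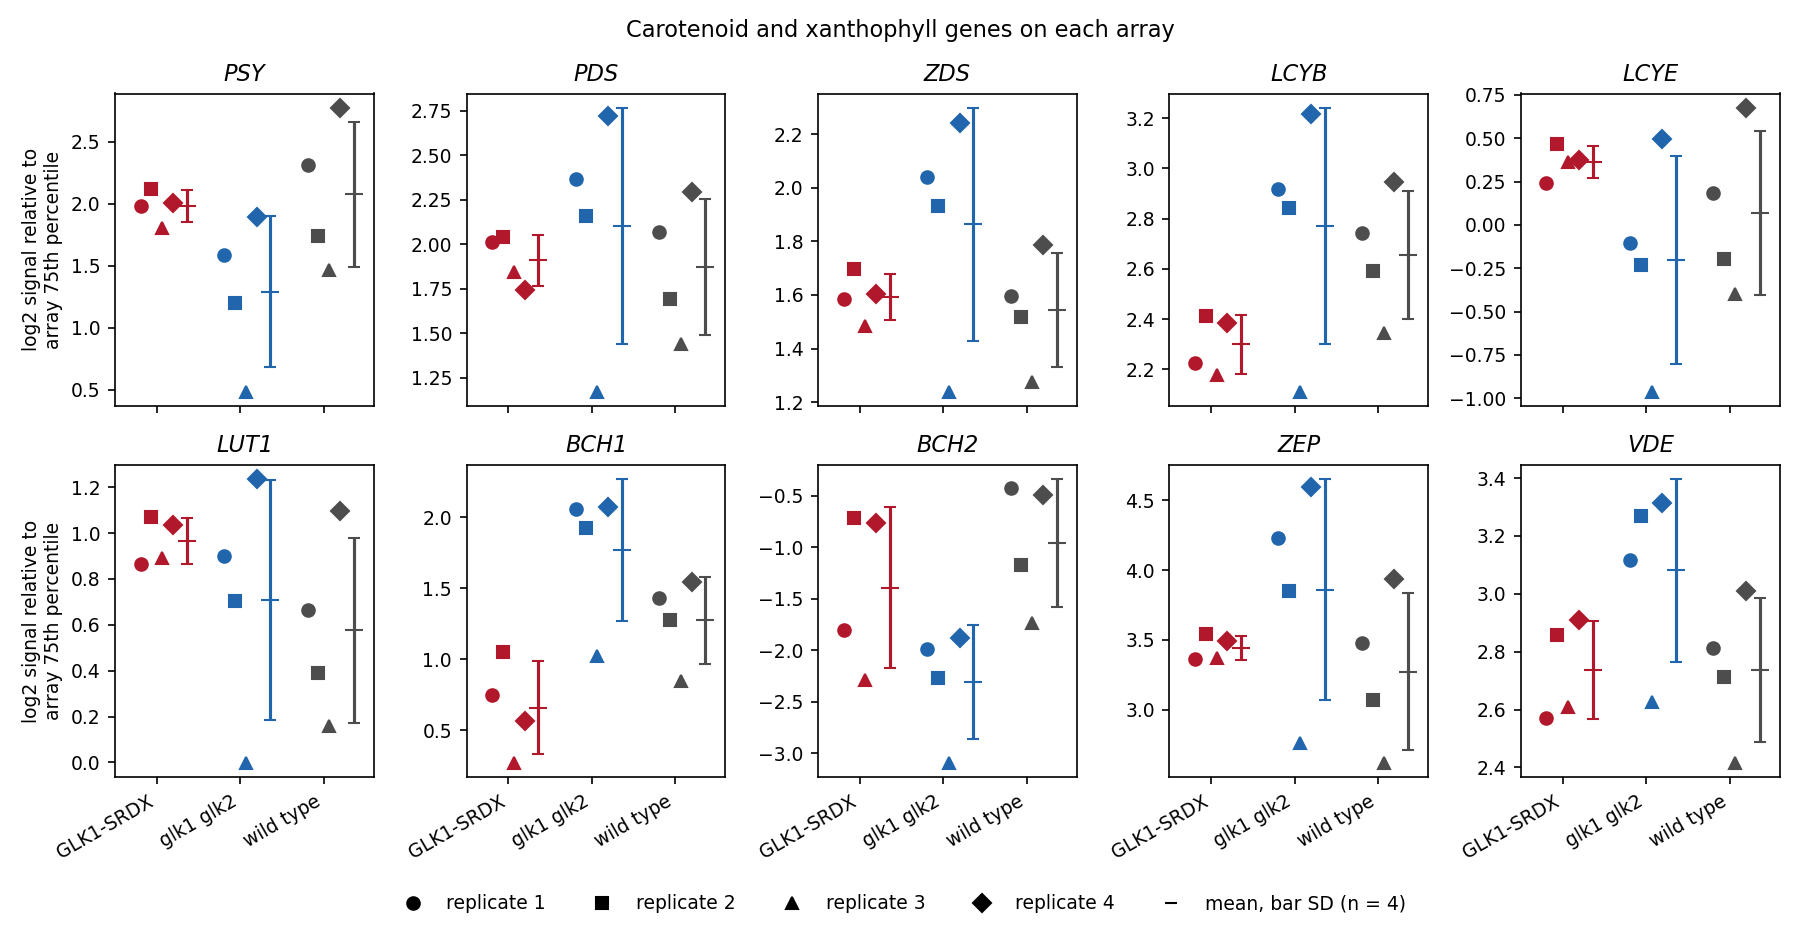
Log2 signal relative to the array's 75th percentile (y axis) of each carotenoid gene on each array, with GLK1-SRDX, glk1 glk2 and wild type from left to right, a symbol for each replicate number, and mean and SD beside the points (n = 4). BCH2 is lower on all 4 glk1 glk2 arrays (-3.10 to -1.88) than on any wild-type array (-1.74 to -0.42), and replicate 3 (triangles) is lowest in glk1 glk2 and wild type in every panel.

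The spread of these genes between arrays followed the same replicate numbers in glk1 glk2 and wild type. On wild-type and glk1 glk2 arrays alike, replicate 3 was the lowest of its group for 10 of the 10 genes, and replicate 4 was the highest for 10 of 10 in glk1 glk2 and 9 of 10 in wild type. Over all loci with 4 values, replicate 3 was lowest for 32.5% in glk1 glk2 and 23.5% in wild type, and replicate 4 was highest for 32.3% and 33.2%. In GLK1-SRDX replicate 2 was highest for 9 of the 10 genes, and the share over all loci was not computed for that array. The SD over 4 arrays had a median over the 10 genes of 0.123 in GLK1-SRDX, 0.537 in glk1 glk2 and 0.393 in wild type, beside medians over all loci of 0.123, 0.247 and 0.189. Summed on the linear scale, in multiples of the array's 75th percentile, the 10 genes ran from 35.4 to 42.1 in GLK1-SRDX, from 26.9 to 66.6 in glk1 glk2 and from 28.4 to 53.6 in wild type. Root and green-leaf markers also differed between these arrays. Over the 15 root markers the sum ran from 41.6 to 79.0 in GLK1-SRDX, from 33.3 to 105 in glk1 glk2 and from 58.9 to 85.5 in wild type, and glk1 glk2 replicate 3 had the highest root sum and replicate 4 the lowest of all 12 arrays. PYK10, at 5.62 in wild type, was the brightest root marker and weighed most in that sum. The root markers were also centred on their wild-type means. Their median then ran from -1.61 to -0.79 in GLK1-SRDX, -1.93 to 0.14 in glk1 glk2 and -0.32 to 0.11 in wild type. Over the 8 green-leaf markers the sum ran from 679 to 740 in GLK1-SRDX, from 499 to 783 in glk1 glk2 and from 688 to 847 in wild type, the lowest being glk1 glk2 replicate 3. In glk1 glk2 replicate 4, where the carotenoid genes were highest, the green-leaf sum was 641, below the 722 and 783 of replicates 1 and 2. In wild type the green-leaf sum was lowest on replicate 3 (688) and highest on replicate 4 (847), as was the carotenoid sum (28.4 and 53.6). The wild-type root sum was highest on replicate 3 (85.5) and lowest on replicate 4 (58.9). Of the root markers 5 of 15 fell in GLK1-SRDX (median log2 fold change -1.23), where 6.3% of all loci fell, and 0 of 15 passed in glk1 glk2 (median -0.87, limma, 8 at an unadjusted p under 0.05). Of the green-leaf markers 1 of 8 fell in GLK1-SRDX and 2 of 8 in glk1 glk2, where 1.11% of all loci fell. Of 3 flowering markers 2 fell in GLK1-SRDX, where 6.3% of all loci fell, and 1 rose in glk1 glk2, where 441 of 20640 loci rose. Of the others, 0 of 4 epidermis markers (limma, 3 and 0 at an unadjusted p under 0.05) and 0 of 2 phloem markers (limma, 0 and 0) passed against wild type. The 2 green-leaf markers that fell in glk1 glk2 were LHCB4.1 and PSAD1. By sign 6 of the 8 were lower there, while RBCS1A and RCA stood at 0.15 and 0.096 against wild type. The list holds photosynthesis genes, a class whose expression GLK1 and GLK2 promote. The green-leaf list is therefore not a measure of green tissue alone. The part of tissue makeup in the carotenoid values was not tested.

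Because glk1 glk2 and wild-type arrays that share a number deviated together over all loci, the pairs were also compared within each number. The labels name no pairing, so it was inferred from these same data. The p-values of the blocked fit do not allow for that choice. PSY was lower in glk1 glk2 in all 4 pairs, by -0.73, -0.54, -0.98 and -0.88 for numbers 1 to 4. BCH2 was lower in all 4 pairs, by -1.57, -1.09, -1.36 and -1.38. In a fit of the arrays of these genotypes alone, with the replicate number as a block, both genes fell, PSY with a limma adjusted p of 0.0315 and BCH2 with 0.0165. These were 2 of the 10 genes called, where that fit called 6.61% of all loci and 2.27% as lower. BCH1 was higher in glk1 glk2 in all 4 pairs (0.18 to 0.65, limma adjusted p = 0.0559 with the block), as were ZEP (0.14 to 0.78, limma adjusted p = 0.0656) and VDE (0.21 to 0.56, limma adjusted p = 0.0666). LCYE was lower in all 4 (-0.56 to -0.04, limma adjusted p = 0.154). PDS, ZDS, LCYB and LUT1 were each higher in 3 pairs and lower in pair 3. In all, 6 of the 10 genes went the same way in all 4 pairs, as did 38.4% of all loci.

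**Figure D3:**
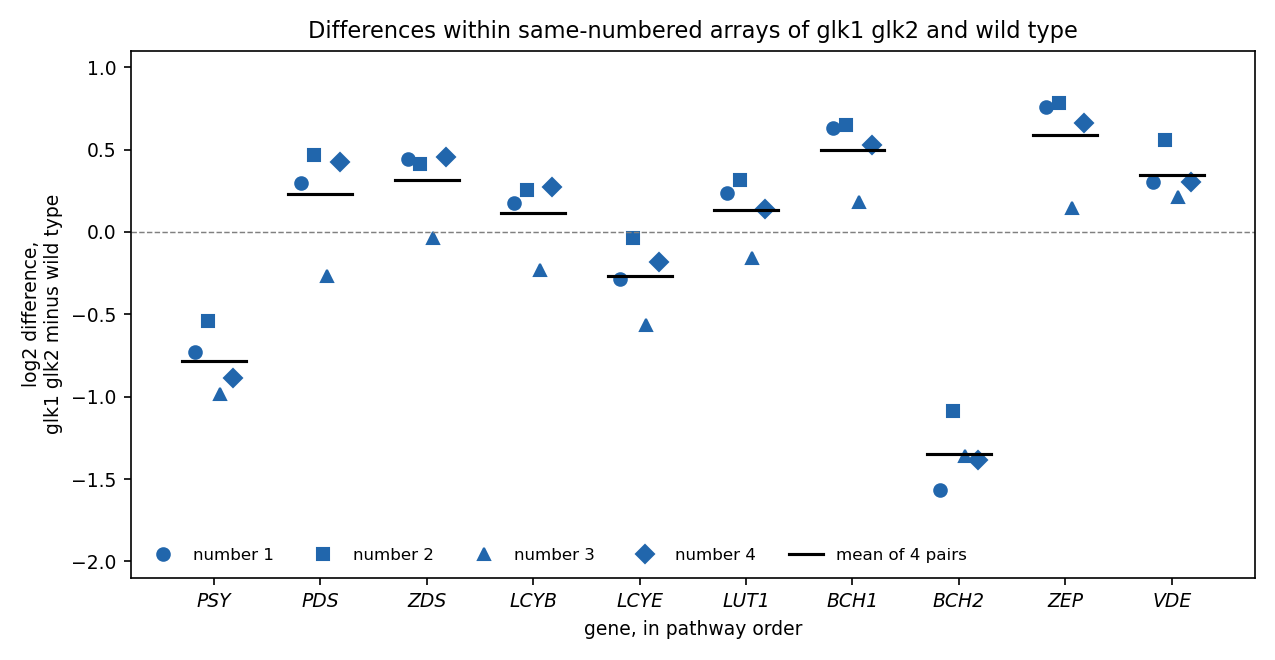
Log2 difference of glk1 glk2 minus wild type (y axis) within each of the 4 same-numbered pairs of arrays (symbols) for the 10 carotenoid genes in pathway order (x axis), with the mean of the 4 pairs as a line. PSY (-0.98 to -0.54) and BCH2 (-1.57 to -1.09) lie below 0 in every pair, BCH1, ZEP and VDE lie above 0 in every pair, and pair 3 is the lowest for 9 of the 10 genes.

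The number of genes that passed changed with each pair of arrays left out. Without the arrays numbered 3 of both genotypes, an alternative chosen after seeing the data, the blocked fit called 8 of the 10 genes, where it called 32.2% of all loci, 17.4% as lower and 14.8% as higher. PSY and BCH2 were lower (-0.72 and -1.35, limma adjusted p = 0.0183 and 0.0167), and PDS, ZDS, LCYB, BCH1, ZEP and VDE were higher (0.23 to 0.73, limma adjusted p from 0.0167 to 0.043). Without both arrays numbered 1, 2 or 4 it called 0 of the 10 genes each time (limma, 5, 6 and 5 at an unadjusted p under 0.05), and 6, 20 and 20 loci in all. At that unadjusted p the same fits had 3663, 4122 and 3676 of the 20640 loci. Replicate 3 was the lowest glk1 glk2 array for all 10 genes, so leaving it out raised every glk1 glk2 mean. Without glk1 glk2 replicate 3 alone and without a block, 4 of the 10 genes were higher in glk1 glk2 than in wild type, where 15.4% of all loci passed and 6.68% were higher. These were ZDS (0.53, limma adjusted p = 0.0241), BCH1 (0.74, 0.0353), VDE (0.50, 0.0436) and ZEP (0.95, 0.0459), while PSY and BCH2 did not pass. In that fit BCH1, LCYB, ZDS and VDE were lower in GLK1-SRDX than in glk1 glk2, where 13% of all loci passed and 5.77% were lower, and BCH1 was also lower in GLK1-SRDX than in wild type (-0.62, limma adjusted p = 0.0391), where 21.5% of loci passed and 10.7% were lower.

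Genes at branch points were then compared with each other within each array, which removes whatever moves both genes alike, the array scaling included. The difference between the log2 signals of 2 genes was tested between groups, in 9 exact two-sided permutation tests with Benjamini-Hochberg adjustment, of which 0 passed and 4 reached the smallest unadjusted p possible, 0.0286. An adjusted p under 0.05 would have needed at least 6 of the 9 tests at that p, so the adjusted values say nothing about the size of the 4 differences. In these 4 the groups did not overlap. Single loci had separate groups in 28.1% (GLK1-SRDX against wild type), 9.66% (glk1 glk2 against wild type) and 17.2% (GLK1-SRDX against glk1 glk2) of cases. The share over other gene pairs was not tested. An effect of the GLK1-SRDX slide on only 1 gene of a pair is not removed. With its wild-type mean set to 0, the epsilon-cyclase minus the beta-cyclase stood at 0.61, 0.64, 0.77 and 0.58 on GLK1-SRDX arrays, -0.43, -0.49, -0.49 and -0.14 on glk1 glk2 arrays and 0.03, -0.20, -0.15 and 0.32 on wild-type arrays. All GLK1-SRDX arrays lay above all others. The LCYE to LCYB ratio was 1.57-fold higher in GLK1-SRDX than in wild type (0.65 on the log2 scale, exact p = 0.0286, adjusted p = 0.0643) and 2.05-fold higher than in glk1 glk2 (1.04, exact p = 0.0286, adjusted p = 0.0643). In glk1 glk2 it was 0.39 lower than in wild type, with overlapping groups (exact p = 0.0857, adjusted p = 0.154). That test leaves out the pairing of the 2 genotypes. Within same-numbered arrays the ratio was lower in glk1 glk2 in all 4 pairs, by -0.46, -0.29, -0.33 and -0.45 for numbers 1 to 4 (mean -0.39 ± 0.09 SD, n = 4 pairs). The exact sign-flip permutation test of these pairs gave p = 0.125, the smallest that 4 pairs allow.

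The BCH2 minus BCH1 difference stood at -0.32, 0.47, -0.32 and 0.90 on GLK1-SRDX arrays, -1.82, -1.96, -1.89 and -1.72 on glk1 glk2 arrays and 0.38, -0.22, -0.35 and 0.19 on wild-type arrays. The glk1 glk2 arrays lay below all others and close together, although replicate 3 was the lowest glk1 glk2 array for each gene by itself. The BCH2 to BCH1 ratio was 3.60-fold lower in glk1 glk2 than in wild type (-1.85 on the log2 scale, exact p = 0.0286, adjusted p = 0.0643), and 4.08-fold higher in GLK1-SRDX than in glk1 glk2 (2.03, exact p = 0.0286, adjusted p = 0.0643). GLK1-SRDX differed from wild type by 0.18 in this ratio (exact p = 0.571, adjusted p = 0.643). Leaving out any single array kept the glk1 glk2 difference from wild type between -1.96 and -1.72. ZEP minus VDE gave overlapping groups in all 3 comparisons, with differences of 0.17 for GLK1-SRDX and 0.24 for glk1 glk2 against wild type, and -0.07 for GLK1-SRDX against glk1 glk2 (exact p = 0.371, 0.457 and 0.914, adjusted p = 0.557, 0.588 and 0.914).

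**Figure D4:**
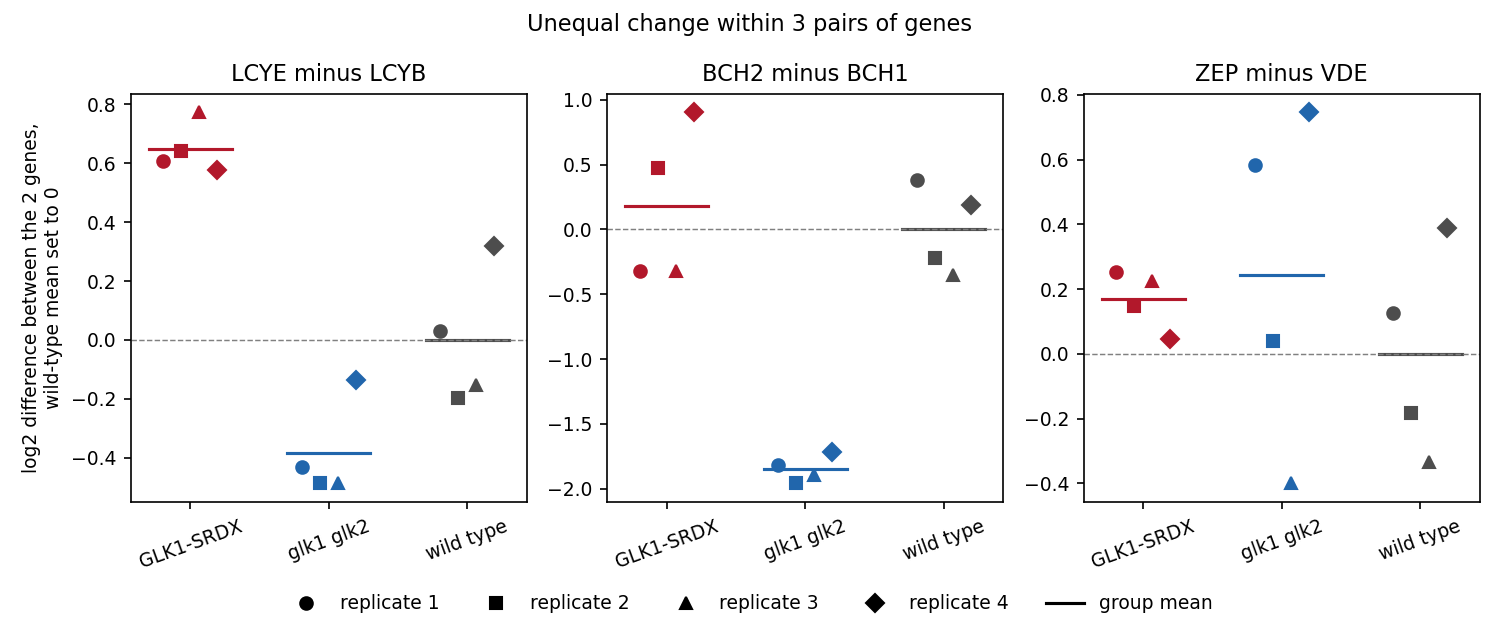
Difference between the log2 signals of 2 genes on the same array, with the wild-type mean set to 0 (y axis), for LCYE minus LCYB, BCH2 minus BCH1 and ZEP minus VDE, with GLK1-SRDX, glk1 glk2 and wild type from left to right. The GLK1-SRDX arrays lie above all others for LCYE minus LCYB (0.58 to 0.77), and the glk1 glk2 arrays below all others for BCH2 minus BCH1 (-1.96 to -1.72).

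The genes around these 10 were followed through lists of related steps. Of 7 other genes of the pathway, such as the isomerases Z-ISO and CRTISO and the P450 hydroxylase LUT5, 0 passed in any of the 3 comparisons (limma, 2, 1 and 1 at an unadjusted p under 0.05). PTOX, the plastid terminal oxidase that takes electrons from phytoene desaturation, averaged 2.18 ± 0.01 in GLK1-SRDX and 2.21 ± 0.21 in glk1 glk2, against 1.88 ± 0.04 in wild type (SD, n = 4 each, limma adjusted p = 0.0542 and 0.0907). Of 10 genes that supply plastid isoprenoid precursors, 1 rose in GLK1-SRDX, where 8.1% of all loci rose. It was the isopentenyl diphosphate isomerase gene IPP1 (1.22-fold, limma adjusted p = 0.0249, held in 12 of 22 alternative settings), and 0 passed in the other comparisons (limma, 1 for glk1 glk2 against wild type and 3 for GLK1-SRDX against glk1 glk2 at an unadjusted p under 0.05). HDS, of the same supply pathway, was 0.38 ± 0.13 higher in glk1 glk2 than in wild type on the log2 scale (SE) and did not pass (limma adjusted p = 0.135).

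Downstream, 9 of 12 genes of carotenoid cleavage and abscisic acid synthesis were tested, and 2 of the 9 fell in GLK1-SRDX, where 14.4% of all loci passed and 6.3% fell. Both encode 9-cis-epoxycarotenoid dioxygenases, which cleave epoxy-carotenoids toward abscisic acid. NCED3 averaged -3.73 ± 0.34 in GLK1-SRDX against -2.56 ± 0.48 in wild type (SD, n = 4 each), a 2.26-fold fall (limma adjusted p = 0.0358). NCED9 averaged -6.69 ± 0.41 in GLK1-SRDX against -5.20 ± 0.33 in wild type, a 2.82-fold fall (limma adjusted p = 0.0386), and was well above background on 3 of the 4 GLK1-SRDX arrays. For both genes the 4 arrays of each group lay apart, as they did for 5 of the 9 genes and 28.1% of all loci. The calls of NCED3 and NCED9 held in 11 of 22 and 9 of 21 alternative settings, and 5 of 15 root markers fell in the same comparison. Between GLK1-SRDX and glk1 glk2 0 of the 9 passed (limma, 5 at an unadjusted p under 0.05). In glk1 glk2 0 of the 9 passed against wild type (limma, 2 at an unadjusted p under 0.05), with CCD1, a carotenoid cleavage dioxygenase, at 0.41 (limma adjusted p = 0.0747). Of 4 genes of competing uses of geranylgeranyl groups, the geranylgeranyl reductase gene AT1G74470, which supplies phytol for chlorophyll and tocopherol, fell 1.62-fold in glk1 glk2 (limma adjusted p = 0.0446), where 1.11% of all loci fell, and was 1.63-fold higher in GLK1-SRDX than in glk1 glk2 (limma adjusted p = 0.021). It passed in 8 of 29 and 15 of 22 alternative settings. Of 3 genes for transcription factors reported to act on PSY, 0 passed (limma, 1, 1 and 2 at an unadjusted p under 0.05). PIF1, a repressor of PSY in the dark, stood at 0.45 in GLK1-SRDX (limma adjusted p = 0.0509), and HY5, an activator in light, at 0.31 in glk1 glk2 (limma adjusted p = 0.179), both against wild type.

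**Figure D5:**
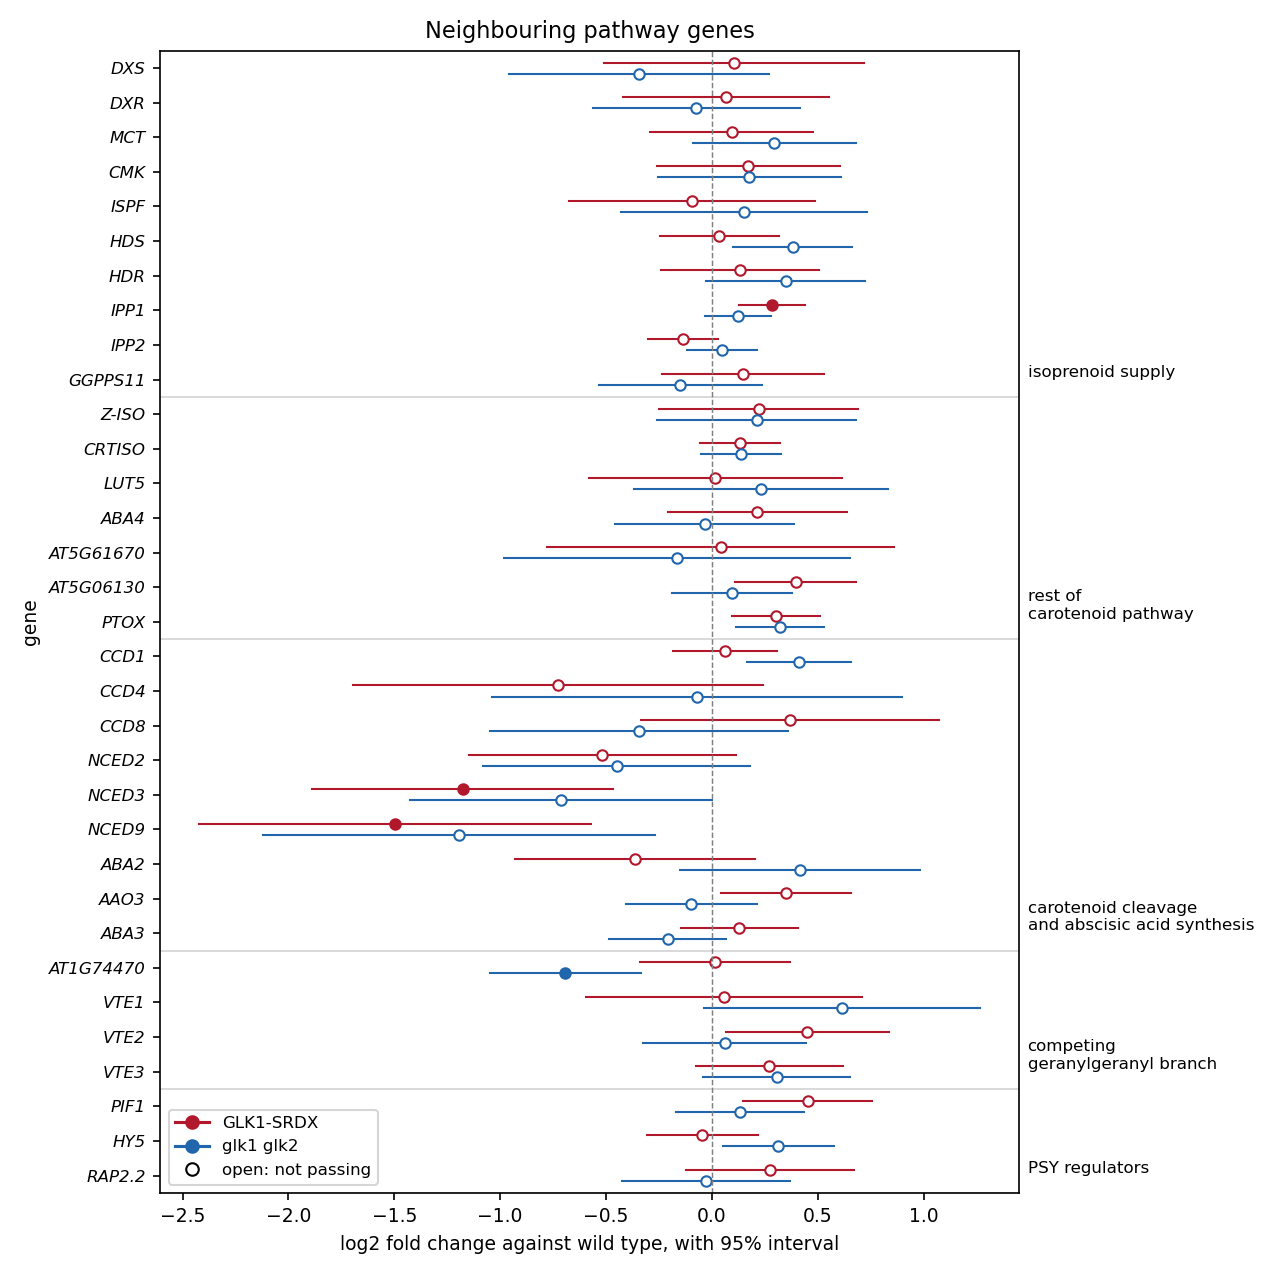
Fitted log2 fold change against wild type (x axis) with 95% confidence intervals for tested genes of 5 neighbouring lists (y axis), GLK1-SRDX drawn above glk1 glk2 for each gene, n = 4 arrays per group. Filled points passed at a limma adjusted p under 0.05, namely IPP1, NCED3 and NCED9 in GLK1-SRDX and AT1G74470 in glk1 glk2.

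Among 9006 tested loci with a symbol, the log2 values most like those of BCH1 over the 12 arrays, each gene centred on its own wild-type mean, were those of NIR1 and NIA2, nitrite and nitrate reductase, and FBA5, a fructose-bisphosphate aldolase, with root mean square differences of 0.208, 0.210 and 0.210. Their fitted changes were -0.47, -0.38 and -0.80 in GLK1-SRDX and 0.49, 0.31 and 0.43 in glk1 glk2 against wild type, and FBA5 in GLK1-SRDX passed (limma adjusted p = 0.0236).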

How the data were processed

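Per the labels' protocols, total RNA of 2-week seedlings was labelled with Cy3. The deposited scanner files hold spot intensity with background subtracted, per the file headers, and the submitters' processing notes name Agilent Feature Extraction 9.1.3.1. The deposited series table, also an intensity, equals the processed signal over a genotype's constant (891.7 in GLK1-SRDX, 1077 in glk1 glk2, 973.9 in wild type), and its column medians were 0.0798 to 0.168. It is linear, without centring, and where the constants come from is not stated in the sources.

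Log2 processed signal was taken relative to each array's 75th percentile (1562 to 2542 units). Control and outlier spots were left out, and 63.9% to 68.5% of probes were well above background. Kept probes were well above background on 4 or more of the 12 arrays and unmarked on 3 or more per group, and the brightest stood for its locus. Comparisons used limma 3.58.1 (R 4.3.3; lmFit, then eBayes, over 12 arrays in the main fit, two-sided, Benjamini-Hochberg over 20640 loci, threshold 0.05) and, for single values, exact permutation tests. "Rose", "fell" and "passed" refer to that limma threshold. The fit was checked on simulated data. The number of arrays limits the precision. Genes of the lists keep common names, and other symbols came from a RefSeq table of assembly TAIR10.1, which held 20521 tested loci. LCYB and LCYE, for example, are LYC and LUT2 in that table. No genome or sequence table was used, so no sequences are given, and coordinates are left out.

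Genes named are all 10, GLK1 and GLK2, the passing members of each other list with the largest change (at most 3, or the one of smallest p), and the 3 nearest patterns to a passing gene. The 10 genes, the lists and the tests were chosen with earlier results of these data known. Replicate numbers were taken to pair wild type and glk1 glk2, since deviations of same-numbered arrays from their group means correlated at 0.32, 0.38, 0.46 and 0.76. The labels do not state this pairing, and the p-values of the blocked fit do not allow for its choice from the data. GLK1-SRDX arrays gave -0.064, -0.20, 0.26 and 0.0084 with wild type and were not paired. With glk1 glk2 they gave -0.0078, 0.20, 0.58 and -0.096, so arrays numbered 3 also deviated together there. Alternatives varied background correction, scaling, filters, probe choice, the arrays fitted, blocks and single arrays.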

Additional observations from a re-analysis of the deposited data

Results flagged for a closer look

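Of 30 groups of 4 arrays (10 genes in 3 genotypes), 1 held an array far from the others by Dixon's criterion, where chance gives about 1 in 20. BCH1 on glk1 glk2 replicate 3 stood at 1.025, against 1.92 for the nearest and 2.07 for the farthest array of its group, a gap of 0.857 of the group's range, above the 95% critical value. The same array was the lowest glk1 glk2 array for all 10 carotenoid genes, and its root-marker sum was the highest and its green-leaf sum the lowest of all 12 arrays. Without it BCH1 was 0.74 higher in glk1 glk2 than in wild type (limma adjusted p = 0.0353) and 1.36 lower in GLK1-SRDX than in glk1 glk2 (limma adjusted p = 0.00311). The array was flagged for its low BCH1 value, so leaving it out raises the glk1 glk2 mean and narrows its spread. These p-values are therefore no separate evidence of a difference.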

How the results depend on the processing

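Calls depended on single arrays and on scaling. Median scaling moved the median of all loci by 0.18 in GLK1-SRDX and 0.19 in glk1 glk2 against wild type, and -0.0066 between them. It put the share of calls that were higher at 78.9% against 56.2% for GLK1-SRDX and 90.3% against 65.7% for glk1 glk2. The series table put it at 2.94% for glk1 glk2, and at 90.5% against 61.3% for GLK1-SRDX versus glk1 glk2. For GLK1-SRDX against wild type, 2972 loci passed, 878 with normexp and 909 from the series table. For glk1 glk2 against wild type, 671 passed, 144 with normexp, 1654 with median scaling, 443 with no filter on dim probes, 111 with those groups alone, 1365 with the replicate block, 136 from the series table, and 20 and 0 within slides 1 and 2. With the block and without both arrays numbered 1, 2, 3 or 4, 6, 20, 6656 and 20 passed. Between GLK1-SRDX and glk1 glk2, 1911 passed, 294 with normexp, 1154 with median scaling, 1271 with those groups alone and 726 with the replicate block. Leaving out 1 array gave 1523 to 4444, 229 to 3177 and 1005 to 2684 loci in the 3 comparisons.

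Of the 10 genes, leaving out 1 array gave 0 to 1, 0 to 4 and 0 to 4 calls. The replicate block gave 2 in glk1 glk2 (8 without both arrays numbered 3, and 0 without those numbered 1, 2 or 4), and 0 passed between GLK1-SRDX and glk1 glk2 with normexp, median scaling, those groups alone or the series table. The causes were not tested. Outside glk1 glk2 versus wild type, the replicate block changed no call of the 10 genes, and there the numbers were not taken to pair the samples.

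Signs turned for small, uncalled differences. In GLK1-SRDX against wild type, VDE stood at 0.21 with normexp, 0.18 with median scaling and 0.10 from the series table, PSY at 0.088 and 0.0047 with the last 2, and PDS at -0.015 with quantile normalization. With 1 array left out, values ran from -0.30 to 0.14 for PSY, -0.11 to 0.18 for PDS, -0.041 to 0.13 for ZDS and -0.051 to 0.39 for ZEP. VDE reached 0.025, 0.090, 0.054 and 0.042 (without wild-type replicate 1 or 4, or GLK1-SRDX replicate 1 or 3), PDS -0.025, -0.11 and -0.0069 (wild-type 2 or 3, GLK1-SRDX 2), ZDS -0.041 and ZEP -0.051 (wild-type 3), and PSY 0.14 (wild-type 4). In glk1 glk2 against wild type, LCYB and LUT1 stood at -0.070 and -0.054 from the series table, and at -0.032 and -0.043 without glk1 glk2 replicate 4, with highs of 0.34 and 0.37 without replicate 3. LUT1 stood at -0.0077 without wild-type replicate 3 and -0.0096 within slide 2. APL, a phloem marker, turned to 0.058 with median scaling. Between GLK1-SRDX and glk1 glk2, PDS and ZDS stood at 0.093 and 0.017 from the series table, and PDS at 0.011 without glk1 glk2 replicate 4 (-0.50 without replicate 3). Leaving out 1 array, ZEP minus VDE between them ran from -0.29 to 0.095 (0.040 without glk1 glk2 replicate 1), and BCH2 minus BCH1 in GLK1-SRDX against wild type from -0.058 to 0.35.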
